A study of Mus musculus with 30 samples.

Results

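Kidneys that had lost p53 were compared with kidneys that had lost Ink4a/Arf, the locus upstream of p53, while the same reprogramming cassette was switched on in both. The comparison used 5 kidney libraries labelled i4F p53 KO and 5 labelled i4F Ink4a/Arf KO, which are 10 of the 30 libraries of the study and were chosen by these labels. All mice were of the C57BL/6 strain, carried i4F, a cassette that expresses Oct4 (gene Pou5f1), Sox2, Klf4 and Myc under doxycycline, and drank 0.2 mg/ml doxycycline for 7 days, 5 mice of each genotype. One more kidney group, i4F without either knockout and with the same doxycycline treatment (5 libraries), is given to place the values. It also enters an alternative fit of all 15 kidney libraries and is set beside each knockout for the p53 targets. Whole kidney was sequenced as poly(A) RNA, so fewer cells of a type and less RNA per cell cannot be told apart. The labels give neither the p53 or Ink4a/Arf allele nor the sex or age of the mice, and a value per gene cannot tell a cassette transcript of the 4 factors from an endogenous one.

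As background, the Ink4a/Arf locus (gene Cdkn2a) encodes 2 unrelated proteins from overlapping reading frames. Arf (p19Arf in the mouse) binds Mdm2, the ubiquitin ligase that degrades p53, and so lets p53 accumulate, while p16Ink4a inhibits Cdk4 and Cdk6 and keeps the Rb protein active. The transcription factor p53 can also be activated without Arf, mainly through kinases that sense DNA damage. Both loci restrain reprogramming of cultured cells to pluripotency. The comparison therefore places loss of the transcription factor beside loss of 1 of its activators together with an Rb pathway inhibitor.

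Gene levels were deposited as FPKM, fragments scaled to transcript length and to the library's mapped reads, and a difference below is the mean log2(FPKM + 1) in p53 KO minus that in Ink4a/Arf KO. The table lists 19468 genes. Those with 1 FPKM or more in 5 or more of these 10 libraries, 12120 genes, were tested with limma, two-sided, at an adjusted p under 0.05. The number of genes past 1 FPKM per library was 11798 to 12406 in p53 KO and 11598 to 12473 in Ink4a/Arf KO, and Pearson's r across tested genes was 0.912 to 0.974 within p53 KO, 0.939 to 0.977 within Ink4a/Arf KO and 0.9 to 0.97 between them. The tissue label matched the markers: Slc34a1, the phosphate transporter of the proximal tubule, measured 656 to 1912 FPKM in p53 KO and 794 to 1789 FPKM in Ink4a/Arf KO, and Umod, the uromodulin gene of the thick ascending limb, 505 to 1518 FPKM in p53 KO and 1172 to 2985 FPKM in Ink4a/Arf KO. Libraries differed within their groups in ways the labels do not name. By Xist and Ddx3y all p53 KO kidneys were male and Ink4a/Arf KO replicate 1 was the only female, p53 KO replicates 2, 3 and 4 held over 100 FPKM of the pancreatic gene Clps, and p53 KO replicates 1 and 4 had the highest levels of tubule injury genes and of the 4 induced factors.

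Few genes passed the test between the 2 knockouts. Of the tested genes, 5 of 12120 passed (0.0413%), 2 higher (0.0165%) and 3 lower (0.0248%) in p53 KO, although 1767 had an unadjusted p under 0.05 by limma (1044 higher, 723 lower). All 3 that fell in p53 KO are on the list of known p53 target genes described below: Ccng1, Mgmt and Trp53inp1. That list was chosen with earlier results of these data known. Both that rose, Xaf1 and AA465934, lie on chromosome 11, the chromosome that also carries Trp53. As a second measure, a gene was said to separate the groups when all 5 libraries of one lay above all 5 of the other. In all, 421 genes did so (3.47%), 238 higher in p53 KO (1.96%) and 183 lower (1.51%). Of the 421, 6 were under 1 FPKM in every Ink4a/Arf KO library and 2 in every p53 KO library, so the filter set their separation.

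Ccng1, which encodes cyclin G1, a p53-induced regulator that feeds back on Mdm2, showed the clearest difference. It measured 20.4, 26.4, 21.3, 22.5 and 18.3 FPKM in the 5 p53 KO kidneys, against 67.4, 59.5, 62.3, 66.8 and 65.4 FPKM in the 5 Ink4a/Arf KO kidneys. All p53 KO values were below 27 FPKM and all Ink4a/Arf KO values above 59 FPKM. Ccng1 (chr11:40748552-40755311 in mm10, minus strand) fell by 1.53 on the log2 scale in p53 KO (21.8 ± 3 FPKM against 64.3 ± 3.33 FPKM, SD, n = 5 each; SE 0.10, limma adjusted p = 0.000153). In i4F kidneys it measured 61.5, 55.6, 50.6, 38.3 and 40.4 FPKM, above every p53 KO value and, apart from replicate 1, below every Ink4a/Arf KO value.

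Mgmt, the enzyme that removes alkyl groups from guanine in DNA, measured 2.05, 2.35, 3.03, 1.92 and 2.28 FPKM in p53 KO, against 8.16, 6.05, 5.49, 7.92 and 8.06 FPKM in Ink4a/Arf KO. Its difference was -1.29 (95% interval -1.58 to -0.99, limma adjusted p = 0.00515), and the i4F kidneys, at 4.7, 6.78, 10.6, 6.18 and 7.03 FPKM, lay in the range of Ink4a/Arf KO or beyond it on either side. Trp53inp1, a stress protein that assists p53 in cell death and autophagy, measured 4.95, 5.04, 4.29, 4.44 and 5.56 FPKM in p53 KO, against 8.48, 7.47, 9.44, 10.9 and 9.23 FPKM in Ink4a/Arf KO. The groups did not overlap, and the difference of -0.78 (SE 0.11) passed narrowly (limma adjusted p = 0.0465). It did not pass after median-of-ratios scaling (adjusted p = 0.0559) or without any 1 of p53 KO replicates 1, 3 and 4 or Ink4a/Arf KO replicates 1, 3, 4 and 5, while its direction held in all 20 settings tried. The i4F values of Trp53inp1, 7.81, 8.68, 5.72, 5.87 and 5.03 FPKM, spread from the p53 KO range into that of Ink4a/Arf KO.

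Xaf1, an interferon-inducible protein that opposes the caspase inhibitor XIAP, measured 7.48, 6.33, 6.32, 5.43 and 4.19 FPKM in p53 KO, against 1.91, 1.3, 1.72, 0.968 and 1.82 FPKM in Ink4a/Arf KO. It rose by 1.45 on the log2 scale (SE 0.15, limma adjusted p = 0.0055), and i4F kidneys, at 1.3 to 2.19 FPKM, overlapped Ink4a/Arf KO. It was the only 1 of 36 tested interferon response genes that passed or separated the groups (2.78%, against 1.96% of all tested genes higher), and 4 separated them without Ink4a/Arf KO replicate 1 (11.1%, against 4.88%). AA465934, a processed transcript in the annotation, measured 27.4, 38.2, 15.2, 32.9 and 49.1 FPKM in p53 KO, against 1.5, 3.86, 3.14, 1.51 and 1.7 FPKM in Ink4a/Arf KO. This was the largest difference of the 5 called genes (log2 difference 3.29, SE 0.30, limma adjusted p = 0.00252), with i4F at 2.27 to 4.03 FPKM.

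**Figure D1:**
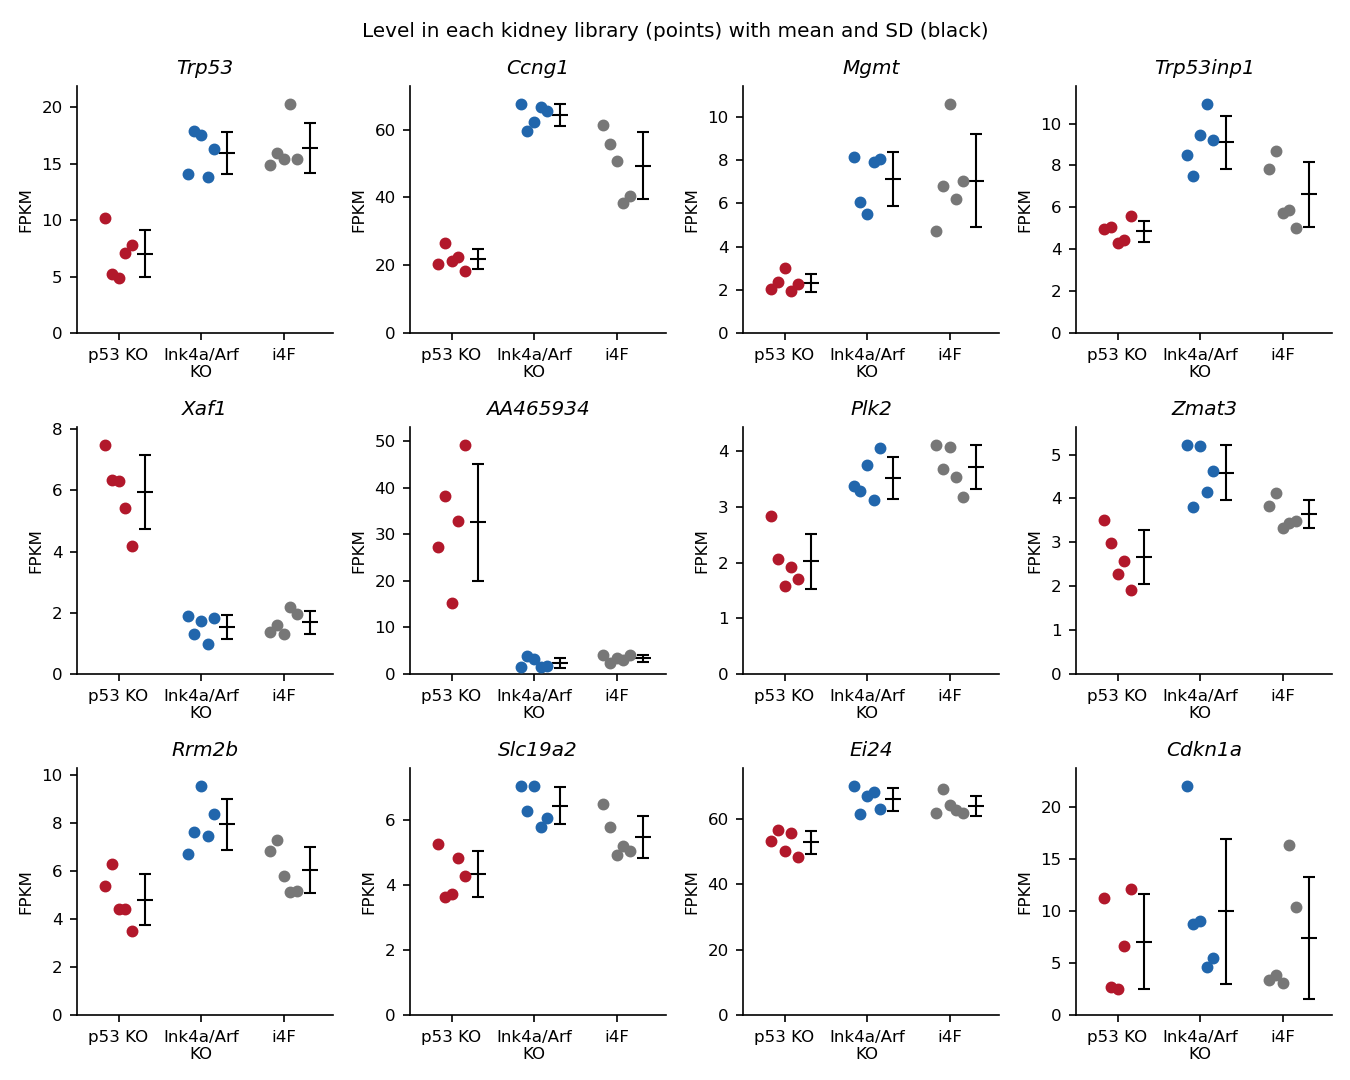
FPKM of 12 genes in each kidney library (points, replicates 1 to 5 from left to right), with group mean and SD in black, for p53 KO, Ink4a/Arf KO and i4F. Every p53 KO point of Ccng1 lies under 27 FPKM and every Ink4a/Arf KO point over 59 FPKM, while the groups mix for Cdkn1a.

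The 5 genes just outside the threshold were Bdh1 (adjusted p = 0.0532), Trp53 itself, 9030617O03Rik and Slc9a8 (each adjusted p = 0.0796) and 1700063D05Rik (adjusted p = 0.0883), all lower in p53 KO without overlap. Since 1700063D05Rik was under 1 FPKM in every p53 KO kidney and was tested only through Ink4a/Arf KO, its lack of overlap was set by the filter. Bdh1, the mitochondrial enzyme that interconverts the main ketone bodies, measured 13, 28.9, 16.1, 21.1 and 12.9 FPKM in p53 KO, against 44.6, 43.1, 50.2, 49.8 and 59.7 FPKM in Ink4a/Arf KO. Slc9a8, a sodium/proton exchanger, measured 12.6, 33, 16.5, 13.2 and 10.2 FPKM in p53 KO, against 52.2, 42, 58.5, 51 and 73.7 FPKM in Ink4a/Arf KO. In both genes p53 KO replicate 2 came closest to Ink4a/Arf KO.

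The targeted genes were examined next as a check of the labels. Trp53 (chr11:69580359-69591873 in mm10) measured 10.1, 5.27, 4.9, 7.11 and 7.77 FPKM in p53 KO, against 14.1, 17.9, 17.6, 13.9 and 16.3 FPKM in Ink4a/Arf KO. The groups did not overlap, the log2 difference was -1.11 (95% interval -1.48 to -0.73, adjusted p = 0.0796), and the i4F kidneys measured 14.8 to 20.3 FPKM. Transcripts of the locus were still present in every p53 KO kidney, and a value per gene does not show which exons they cover. The difference passed after scaling (adjusted p = 0.0337), with all 15 kidney libraries in the fit (adjusted p = 0.00901) and without p53 KO replicate 1 or 2.

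Cdkn2a, the locus removed in Ink4a/Arf KO, measured 0.226, 0.261, 0.151, 0 and 0 FPKM in p53 KO, 0.0563, 0.0662, 0, 0 and 0 FPKM in Ink4a/Arf KO and 0, 0.0746, 0, 0.0782 and 0.0608 FPKM in i4F. It was below the filter in all 3 genotypes, so its deletion could not be seen in these values. Cdkn2b, the neighbouring gene for the Cdk4 and Cdk6 inhibitor p15Ink4b, measured 1.32, 0.365, 0.17, 1.07 and 0.393 FPKM in p53 KO, against 3.13, 2.84, 4.86, 0.53 and 3.54 FPKM in Ink4a/Arf KO. All Ink4a/Arf KO values except that of replicate 4 lay above every p53 KO value (log2 difference -1.18, SE 0.34, adjusted p = 0.234), and i4F measured 0.332 to 1.71 FPKM.

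The p53 pathway was then described through 49 known target genes, of which 47 were in the table and 42 were tested. They were chosen with earlier results of these data known, so the counts are not independent of that choice. Of the 42 tested, 3 passed the test as lower (0.0248% of all tested genes did) and 0 as higher (0.0165% of all tested genes). In 8 of 42 (19%) every p53 KO value lay below every Ink4a/Arf KO value, against 1.51% of all tested genes, and in none did every p53 KO value lie above (1.96% of all genes). The median difference over the 42 was -0.05, against 0.03 over all tested genes, and 19 members were positive, so the lower values belonged to a subset. Leaving out single libraries gave 8 to 10 separated members, all lower, except that without Ink4a/Arf KO replicate 1 there was also 1 higher (8 lower, 1 higher). A separation cannot be undone by leaving out a library, so the 8 could not fall. Of all genes 1.61% to 3.93% were lower in those settings, also up from 1.51%. Without the 3 libraries above 100 FPKM of Clps, which leaves only p53 KO replicates 1 and 5, 9 members were lower and 7 higher (21.4% and 16.7%, against 8.73% and 18% of all genes).

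**Figure D2:**
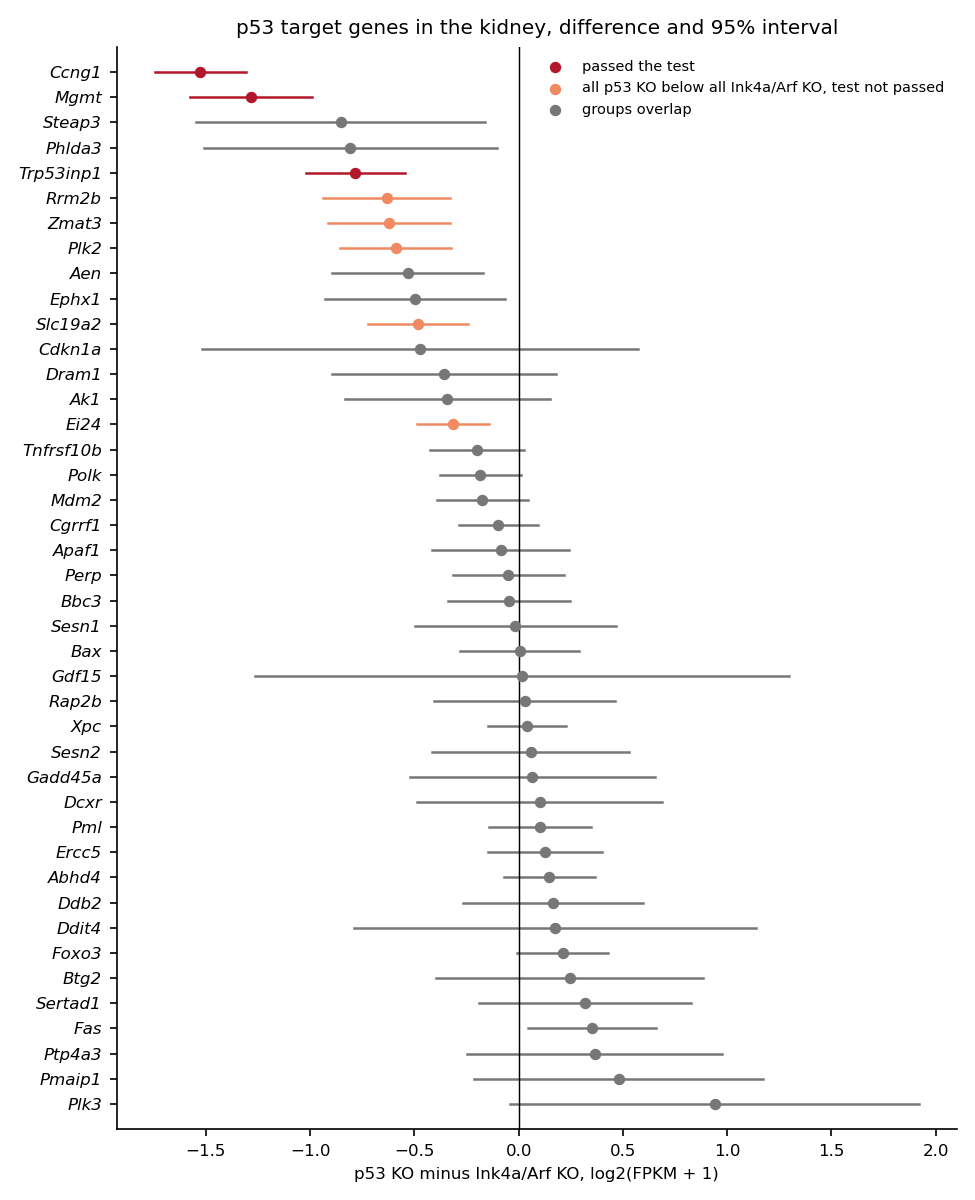
Difference between p53 KO and Ink4a/Arf KO in log2(FPKM + 1) for the 42 tested p53 target genes, with the 95% interval from limma. Ccng1, Mgmt and Trp53inp1 passed the test, 5 more were lower with no overlap of the groups, and the other 34 lie on both sides of 0.

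Beside the 3 genes that fell, 5 members separated the groups without passing the test. Plk2, a polo-like kinase induced by stress, measured 2.84, 2.07, 1.58, 1.92 and 1.72 FPKM in p53 KO, against 3.38, 3.28, 3.76, 3.13 and 4.07 FPKM in Ink4a/Arf KO (log2 difference -0.59, SE 0.12, adjusted p = 0.118). Zmat3, an RNA-binding zinc finger protein, measured 3.51, 2.98, 2.29, 2.59 and 1.92 FPKM in p53 KO, against 5.21, 3.8, 5.19, 4.14 and 4.61 FPKM in Ink4a/Arf KO (log2 difference -0.62, SE 0.13, adjusted p = 0.134). Both passed with all 15 kidney libraries in the fit (adjusted p = 0.0389 each; that fit called 34 genes in all, 0.281%) and after scaling (adjusted p = 0.0414 each).

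Rrm2b, the p53-inducible small subunit of ribonucleotide reductase that supplies nucleotides for DNA repair, measured 5.38, 6.28, 4.43, 4.43 and 3.49 FPKM in p53 KO, against 6.71, 7.6, 9.51, 7.45 and 8.36 FPKM in Ink4a/Arf KO (adjusted p = 0.142). Slc19a2, a thiamine transporter, measured 5.26, 3.62, 3.72, 4.82 and 4.27 FPKM in p53 KO, against 7.02, 6.26, 7.02, 5.76 and 6.06 FPKM in Ink4a/Arf KO (adjusted p = 0.151). Ei24, a membrane protein of the endoplasmic reticulum first found as induced by etoposide, measured 53.4, 56.6, 50.2, 55.9 and 48.6 FPKM in p53 KO, against 70.1, 61.7, 67, 68.3 and 63.2 FPKM in Ink4a/Arf KO (adjusted p = 0.18). None of the 3 overlapped, and the log2 differences were -0.63, -0.48 and -0.32 for Rrm2b, Slc19a2 and Ei24.

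Several of the best known targets did not separate the knockouts. Cdkn1a, the p21 inhibitor of cyclin-dependent kinases, measured 11.2, 2.72, 2.49, 6.59 and 12.1 FPKM in p53 KO, against 22, 8.73, 9.03, 4.63 and 5.44 FPKM in Ink4a/Arf KO (log2 difference -0.47, 95% interval -1.52 to 0.57, adjusted p = 0.657). Both groups ranged over more than 4-fold, and Ink4a/Arf KO replicate 1 held the highest value. Mdm2 measured 10.3, 9.3, 8.04, 9.81 and 10.1 FPKM in p53 KO, against 12.6, 10.3, 10.8, 9.31 and 11.3 FPKM in Ink4a/Arf KO (log2 difference -0.17, 95% interval -0.39 to 0.05, adjusted p = 0.426).

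The apoptosis genes Bax, Bbc3 and Perp had differences of 0.00, -0.05 and -0.05 (95% intervals -0.28 to 0.29, -0.34 to 0.24 and -0.32 to 0.22). The death receptor gene Fas had a positive difference of 0.35 (adjusted p = 0.308), and the kinase gene Plk3 the most positive of the list (0.94, adjusted p = 0.355). Phlda3, an inhibitor of Akt signalling, had a difference of -0.81 (adjusted p = 0.308), and of its p53 KO values only that of replicate 2, at 7.18 FPKM, lay inside the range of Ink4a/Arf KO (3.48 to 8.73 FPKM).

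Of the 5 members in the table that were too low to test, Eda2r, a receptor of the tumour necrosis factor family, measured 0 to 0.0295 FPKM in p53 KO, against 0.18 to 0.705 FPKM in Ink4a/Arf KO and 0.122 to 0.324 FPKM in i4F. The other 4, Rprm, Gtse1, Psrc1 and Ckap2, overlapped.

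Set beside i4F kidneys, the same 42 targets gave 4 members in which every p53 KO value lay below every i4F value (9.52%, against 1.59% of all tested genes) and 0 above (0.866% of all genes). The 4 were Ccng1, Mgmt, Plk2 and Ei24. Ink4a/Arf KO against i4F gave 0 members lower (1.2% of all genes) and 0 higher (0.561% of all genes). These counts share libraries with the comparison of both knockouts and are not independent of it. For Zmat3, Rrm2b and Slc19a2 the i4F values, at 3.34 to 4.11, 5.13 to 7.26 and 4.91 to 6.47 FPKM, reached into the p53 KO range.

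The promoters of the targets were searched for the p53 response element, the sequence that p53 binds, as a pair of adjacent half-sites of the published consensus without a spacer, on both strands, with at most 1 mismatch and the core C and G of each half-site fixed. The window ran from 250 bases before to 50 bases after each annotated start (RefSeq, GRCm38.p6). Of 32851 promoters 22 held such a site (0.067%), among tested genes 6 of 8675 (0.0692%). Of the 33 tested targets with a listed promoter, Ccng1 and Cdkn1a held it (2 of 33, 6.06%): 1 of the 5 that separated the groups and 1 of the other 28. Both are printed 5′ to 3′ on the strand of the gene, with the site in capitals, because one belongs to the target with the clearest difference and the other to a target whose groups overlap.
Ccng1, chr11:40755237-40755536, minus strand: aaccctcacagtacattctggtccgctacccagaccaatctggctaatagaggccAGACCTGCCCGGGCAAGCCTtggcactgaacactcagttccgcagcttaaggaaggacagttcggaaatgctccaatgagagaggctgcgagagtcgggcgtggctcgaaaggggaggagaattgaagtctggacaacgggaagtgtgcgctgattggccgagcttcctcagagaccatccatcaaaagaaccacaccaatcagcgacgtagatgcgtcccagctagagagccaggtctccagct
Cdkn1a, chr17:29090729-29091028, plus strand: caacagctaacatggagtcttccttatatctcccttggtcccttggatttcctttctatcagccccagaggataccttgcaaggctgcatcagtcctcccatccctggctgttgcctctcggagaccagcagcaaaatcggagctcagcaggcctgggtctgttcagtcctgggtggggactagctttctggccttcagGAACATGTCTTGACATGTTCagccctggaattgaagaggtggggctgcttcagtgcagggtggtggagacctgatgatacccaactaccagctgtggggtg
The site of Ccng1 begins 195 bases and that of Cdkn1a 51 bases before the annotated start of the printed window, and each has 1 mismatch to the consensus. Cdkn1a has 2 listed promoters and only 1 held the site, so its distance is to that start alone. A window without such a match may hold other forms of the element, and Trp53inp1, Zmat3 and Rrm2b had no promoter in the table.

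Among 17 tested p53 family members and regulators, Trp53 was the only one that separated the groups (5.88% lower, against 1.51%). Npm1, nucleophosmin, which holds Arf in the nucleolus, measured 160.2, 84.7, 105, 144 and 158 FPKM in p53 KO, against 96.5, 91.4, 99.2, 78.3 and 79.8 FPKM in Ink4a/Arf KO (adjusted p = 0.288). None of 21 tested Rb pathway genes passed or separated the groups, with a median difference of 0.01. After scaling 3 of 21 were lower without overlap (14.3%, against 2.49% of all genes), and without Ink4a/Arf KO replicate 1 there were 2 higher (9.52%, against 4.88%). Cdk4, the kinase that p16Ink4a inhibits, measured 73.1, 38.3, 45.2, 58.7 and 58.6 FPKM in p53 KO, against 42.3, 39.9, 40.9, 31.3 and 36.2 FPKM in Ink4a/Arf KO (adjusted p = 0.283). E2f2, an activating E2F factor, had a difference of -0.34 (adjusted p = 0.284).

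The genomic position of the differing genes was described next, since both knockouts are made by altering a single locus. Chromosome 11 carried 1007 of the tested genes (8.31%) and 3 of the 5 called genes, Ccng1 28.8 Mb before Trp53, Xaf1 2.72 Mb and AA465934 13.7 Mb after it. On this chromosome 48 genes, Trp53 included, separated the groups (4.77%, against 3.47% of all tested genes), 30 higher and 18 lower in p53 KO. Within 5 Mb of Trp53, 121 genes were tested: 5 were higher without overlap (4.13%, against 1.96% of all genes) and 2 lower (1.65%, against 1.51%). From 5 to 20 Mb, 12 of 316 were higher (3.8%) and 4 lower (1.27%), while on all other chromosomes 207 of 11007 were higher (1.88%) and 164 lower (1.49%).

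The 5 nearby genes that were higher are Xaf1, Spns3, Gps2, Mybbp1a and Txndc17, and the 2 lower ones Cyb5d2 and Gsg2. Spns3, a member of the spinster family of membrane transporters, measured 10.3, 8.03, 8.01, 9.36 and 9.07 FPKM in p53 KO, against 5.64, 6.31, 3.9, 3.65 and 4.27 FPKM in Ink4a/Arf KO (log2 difference 0.81, adjusted p = 0.0883, and 0.0389 with all 15 kidney libraries). Gps2, a subunit of a corepressor complex that lies 0.33 Mb from Trp53, measured 20.8, 16.7, 14.9, 21.3 and 23.8 FPKM in p53 KO, against 13.2, 12.5, 13.2, 12.6 and 13.2 FPKM in Ink4a/Arf KO. The labels do not say how many backcrosses separate the knockout strains, and the part of linked sequence in these differences was not tested.

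**Figure D3:**
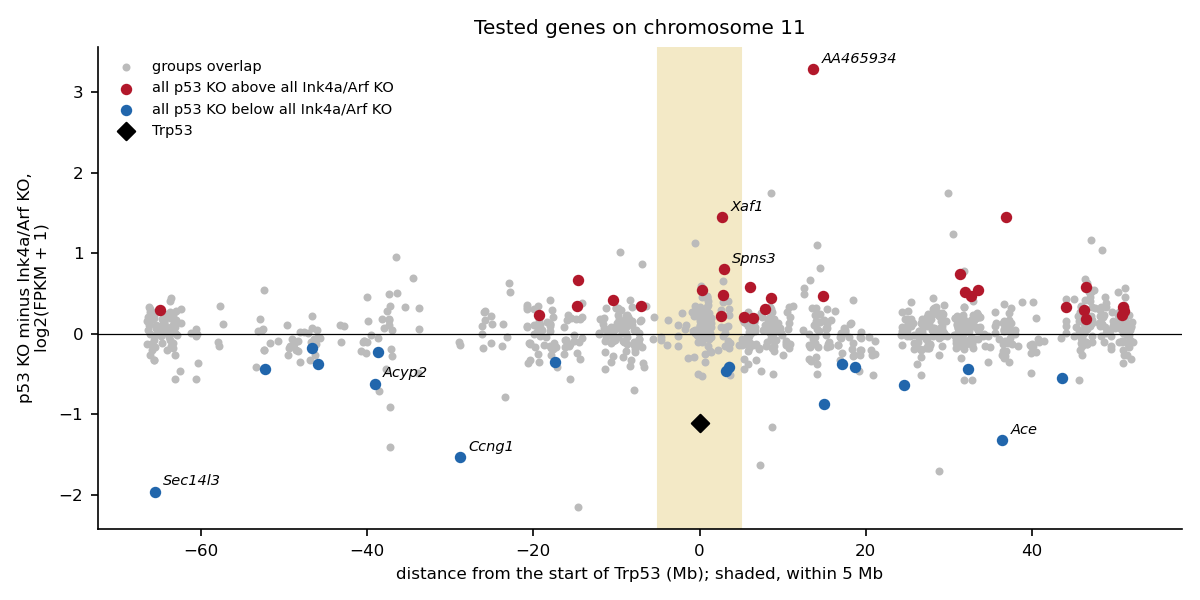
Difference between p53 KO and Ink4a/Arf KO in log2(FPKM + 1) for the tested genes of chromosome 11 by their distance from the start of Trp53 in Mb, coloured by whether the groups are separated. AA465934 stands highest of all, Xaf1 and Spns3 lie inside the shaded 5 Mb, and Ccng1 lies 28.8 Mb before Trp53.

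Around Cdkn2a on chromosome 4 fewer genes were measured. Of 15 tested within 5 Mb, Plin2 was higher and Mllt3 lower without overlap (6.67% each), and of 98 between 5 and 20 Mb 0 were higher and 5 lower (5.1%). Of all tested genes 1.96% were higher and 1.51% lower. Plin2, the protein that coats lipid droplets, measured 85.2, 43.9, 31.8, 42.9 and 35.3 FPKM in p53 KO, against 24.1, 9.51, 9.33, 10.9 and 10.2 FPKM in Ink4a/Arf KO. All Ink4a/Arf KO values except that of replicate 1 lay below 11 FPKM, and the i4F kidneys measured 41.6, 34.7, 44.2, 30.8 and 29.9 FPKM, overlapping p53 KO and above every Ink4a/Arf KO value. Its log2 difference of 1.83 (SE 0.30) did not pass (adjusted p = 0.0883), but did after scaling (adjusted p = 0.0414) and without Ink4a/Arf KO replicate 1. It was the only 1 of 29 tested lipid droplet and PPAR alpha target genes that separated the groups (3.45%, against 1.96% of all genes higher). Leaving out 1 library gave 1 to 3 higher and 0 to 2 lower in that list. There were 3 higher without Ink4a/Arf KO replicate 4 (10.3%, against 2.24% of all genes). Without p53 KO replicate 3 there were 2 lower (6.9%, against 1.61%).

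Kidney function genes had more negative than positive differences, and none passed the test. Of 27 tested organic ion transporters, which move drugs and metabolites across the tubule, 3 were lower without overlap (11.1%, against 1.51% of all genes) and 0 higher, with a median difference of -0.29. Without Ink4a/Arf KO replicate 1, 6 of 27 were lower (22.2%, against 3.13% of all genes). Slc22a7, the organic anion transporter OAT2, measured 5.25, 43.2, 9.02, 28.7 and 1.9 FPKM in p53 KO, against 111, 114, 138, 154 and 189 FPKM in Ink4a/Arf KO (log2 difference -3.55, SE 0.64, adjusted p = 0.0958). Its p53 KO values ranged over more than 20-fold and still stayed below every Ink4a/Arf KO value. Slc22a19 and Slc22a13 measured 2.84 to 56.5 and 0.503 to 23.2 FPKM in p53 KO, against 60.4 to 128 and 29.1 to 56.7 FPKM in Ink4a/Arf KO (adjusted p = 0.18 and 0.202).

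Of 45 tested proximal tubule genes 4 were lower without overlap (8.89%, against 1.51% of all genes) and 0 higher, namely Slc22a7, Slc22a19, the aspartic protease Napsa and the amino acid transporter subunit Slc3a1. Without Ink4a/Arf KO replicate 1, 8 were lower and 1 higher (17.8% and 2.22%, against 3.13% and 4.88% of all genes). The summed proximal tubule list measured 13490, 48810, 52820, 23540 and 16280 FPKM in p53 KO, against 34370, 71350, 60500, 79760 and 75090 FPKM in Ink4a/Arf KO. Most of this sum in Ink4a/Arf KO came from Kap, an androgen-induced kidney protein, at 4889.8, 32328, 34631, 11455 and 3889 FPKM in p53 KO and 19097, 53198, 47332, 59025 and 57456 FPKM in Ink4a/Arf KO. The lowest Kap value of Ink4a/Arf KO was that of the female replicate 1, whereas the lowest of p53 KO were males, replicates 1 and 5.

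Of 33 tested genes of the distal nephron and collecting duct, Slc12a1, the sodium-potassium-chloride cotransporter of the thick ascending limb, was lower without overlap (3.03%, against 1.51% of all genes). It measured 50.5, 132, 40, 85.4 and 79.2 FPKM in p53 KO, against 266, 138, 449, 132 and 354 FPKM in Ink4a/Arf KO. The nearest values of the groups are both 132 FPKM as rounded here, so Slc12a1 separated them only barely. Scnn1g, a subunit of the epithelial sodium channel, was higher without overlap (3.03%, against 1.96% of all genes), at 15 to 23.2 FPKM in p53 KO and 11.1 to 14.9 FPKM in Ink4a/Arf KO. After scaling 0 were higher and 2 lower (6.06%, against 2.49% of all genes), so the separation of Scnn1g was lost. Without Ink4a/Arf KO replicate 4 there were 4 lower (12.1%, against 1.9%). Without Ink4a/Arf KO replicate 1 there were 3 higher (9.09%, against 4.88%).

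Negative differences were also in the majority among genes of energy metabolism, with none passed. Of 34 tested genes of fatty acid oxidation and ketone metabolism 4 were lower without overlap (11.8%, against 1.51% of all genes) and 0 higher: Bdh1, the acyl-CoA dehydrogenases Acadm and Acadl, and the reductase Decr1. Acadm measured 152, 347, 227, 264 and 174 FPKM in p53 KO, against 532, 393, 450.0, 459 and 526 FPKM in Ink4a/Arf KO (log2 difference -1.07, adjusted p = 0.112). The median of the list was -0.13, and 26 of 34 differences were negative. Without Ink4a/Arf KO replicate 1, 7 were lower (20.6%, against 3.13% of all genes), and without the libraries above 100 FPKM of Clps 15 (44.1%, against 8.73%). In oxidative phosphorylation 34 of 37 differences were negative (median -0.17), with 3 members lower without overlap (8.11%, against 1.51% of all genes). After scaling there were 0 (2.49% of all genes). There were 7 without p53 KO replicate 2 (18.9%, against 3.93%) and 14 without p53 KO replicate 5 (37.8%, against 2.12%). Without Ink4a/Arf KO replicate 3 there were 5 (13.5%, against 1.78%). Ribosomal protein genes had positive differences in 34 of 34 (median 0.33, and 0.29 after scaling), of which Rplp2, Rps20 and Rpl13 were higher without overlap (8.82%, against 1.96% of all genes) and none passed. Without Ink4a/Arf KO replicate 1 there were 5 (14.7%, against 4.88% of all genes), and without the libraries above 100 FPKM of Clps 31 (91.2%, against 18% of all genes).

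Part of the markers of 2 other cell types, neutrophils and pancreatic acinar cells, were higher in p53 KO without overlap. Of 8 tested neutrophil genes 4 were higher without overlap (50%, against 1.96% of all genes), with a median difference of 1.31, and none passed. S100a8, a subunit of calprotectin, measured 92.1, 56, 33, 58.8 and 66.9 FPKM in p53 KO, against 8.68, 23.8, 30.7, 8.73 and 32.4 FPKM in Ink4a/Arf KO (log2 difference 1.64, adjusted p = 0.186). Its partner S100a9 measured 50, 36.6, 20.5, 35.8 and 86.5 FPKM in p53 KO, against 4.05, 16.3, 15.5, 5.19 and 18.4 FPKM in Ink4a/Arf KO (adjusted p = 0.168).

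Retnlg, a resistin-like secreted protein, measured 10.9, 6.39, 3.34, 6.92 and 13.5 FPKM in p53 KO, against 0.659, 2.09, 3.17, 1.1 and 2.33 FPKM in Ink4a/Arf KO (adjusted p = 0.124, and 0.0389 with all 15 kidney libraries). The fourth was Stfa2l1, a stefin, at 1.15 to 2.85 FPKM in p53 KO and 0.154 to 0.906 FPKM in Ink4a/Arf KO. It was tested only through p53 KO, so its separation was set by the filter. The i4F kidneys, at 7.04 to 14.1 FPKM of S100a8, lay below every p53 KO kidney. The count was also 4 of 8 after scaling and without any 1 library, with Stfa2l1 included each time. Leaving out a library cannot undo a separation, so those counts could not fall. The granule genes Mpo, Elane, Camp, Ngp and Ltf summed to 0.904 to 4.05 FPKM in p53 KO, against 0.346 to 3.85 FPKM in Ink4a/Arf KO. The summed list of 23 genes measured 737.8, 363.5, 80.58, 381.6 and 261.2 FPKM in p53 KO, against 49.97, 101.9, 258, 21.39 and 90.46 FPKM in Ink4a/Arf KO, and the groups overlapped in both sums. Lcn2, which injured tubules also express, gave 561 and 268 FPKM of the sums of p53 KO replicates 1 and 4.

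Acinar genes of the pancreas, the enzyme-secreting cells of that organ, had 12 of 29 tested members higher without overlap (41.4%, against 1.96% of all genes) and a median difference of 3.84, with none passed. Of the 12, Tff2 and Pla2g1b were under 1 FPKM in every Ink4a/Arf KO kidney and were tested only through p53 KO. The count was 24 without p53 KO replicate 1 (82.8%, against 2.44% of all genes) and 25 without Ink4a/Arf KO replicate 5 (86.2%, against 2.67%). Clps, pancreatic colipase, measured 20, 220.3, 197, 191 and 17.5 FPKM in p53 KO, against 0.39, 1.15, 0.82, 0.926 and 7.37 FPKM in Ink4a/Arf KO and 17.5, 17.3, 13.8, 13.4 and 216 FPKM in i4F (log2 difference 5.03, SE 0.82, adjusted p = 0.0883). The defining markers Clps, Cela2a, Ctrb1, Cpa1 and Prss2 together measured 130 to 1520 FPKM in p53 KO, against 3.96 to 156 FPKM in Ink4a/Arf KO and 91.2 to 1340 FPKM in i4F. The whole list of 37 genes overlapped in its sum, 2792 to 6977 FPKM in p53 KO and 2887 to 4446 FPKM in Ink4a/Arf KO. Spink3 and Klk1, which the kidney also expresses, gave 1571 to 2681 and 457 to 3659 FPKM of it in p53 KO, against 1782 to 2527 and 589 to 1846 FPKM in Ink4a/Arf KO. The part of pancreatic RNA in the differences of other genes was not tested. In all, 98 genes passed without the 3 libraries above 100 FPKM of Clps, of which 3 were among the 5.

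**Figure D4:**
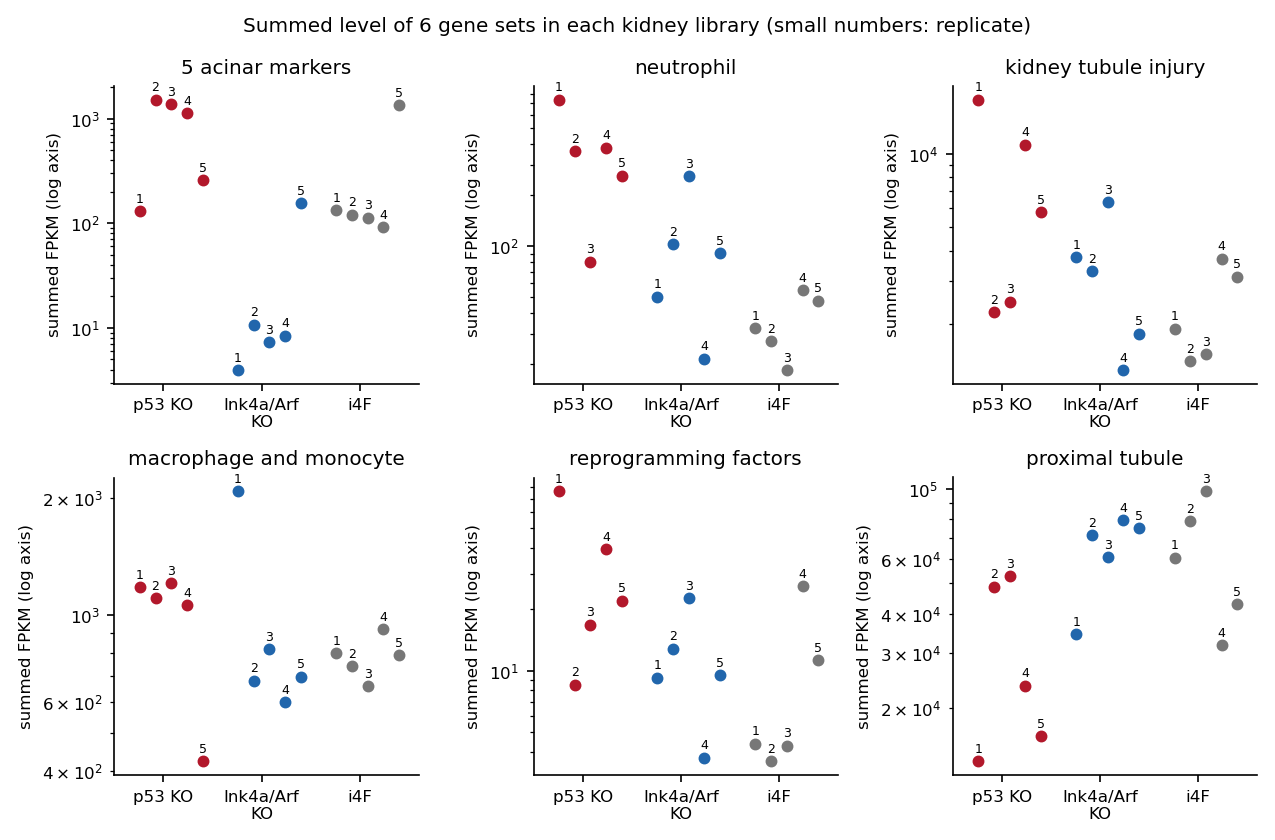
Summed FPKM, on a log axis, of the 5 acinar markers and of 5 gene lists in each kidney library of p53 KO, Ink4a/Arf KO and i4F, with the replicate number above each point. The acinar markers of p53 KO replicates 2, 3 and 4 stand above those of every Ink4a/Arf KO library, and Ink4a/Arf KO replicate 1 is highest in macrophage genes at 2079 FPKM.

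Tubule injury and acute phase genes had high values in part of the p53 KO kidneys. Of 44 tested injury genes 38 had positive differences (median 0.33), but none passed and 0 separated the groups in either direction. Without the libraries above 100 FPKM of Clps 12 were higher (27.3%, against 18% of all genes). The summed list measured 16730, 2233, 2466, 10890 and 5765 FPKM in p53 KO, against 3749, 3285, 6313, 1289 and 1816 FPKM in Ink4a/Arf KO. In p53 KO, replicates 1 and 4 stood highest and replicates 2, 3 and 5 lay inside the range of Ink4a/Arf KO. C3, the central complement component, measured 173, 66.3, 20.6, 71.1 and 125 FPKM in p53 KO, against 32.1, 8.71, 8.85, 6.41 and 7.05 FPKM in Ink4a/Arf KO (log2 difference 2.72, SE 0.56, adjusted p = 0.124); p53 KO replicate 3 and Ink4a/Arf KO replicate 1 overlapped. Of 17 tested complement genes 2 were lower without overlap (11.8%, against 1.51% of all genes): Cd55, which protects cells from complement, and C8a, a subunit of the membrane attack complex. Over the 17, however, 14 differences were positive and 3 negative (median 0.22), with 0 higher without overlap (1.96% of all genes).

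Of 28 tested genes of IL6 family signalling Stat3, its main transcription factor, was higher without overlap (3.57%, against 1.96% of all genes), at 55.1, 28.9, 29.8, 42.7 and 30.6 FPKM in p53 KO and 23.9, 27.3, 28.8, 12.6 and 17.9 FPKM in Ink4a/Arf KO (adjusted p = 0.271). The separation of Stat3 was lost after scaling. In the list 23 of 28 differences were positive (median 0.68), and none passed. The summed list overlapped, at 384.6 to 1885 FPKM in p53 KO and 233.9 to 567.5 FPKM in Ink4a/Arf KO. Leaving out 1 library gave 1 to 3 members higher. There were 3 (10.7%) without p53 KO replicate 3, p53 KO replicate 5 or Ink4a/Arf KO replicate 2, against 4.69%, 3.14% and 2.48% of all genes. The fibrinogen gene Fgg measured 417, 16.3, 76.2, 193 and 100.1 FPKM in p53 KO, against 28.9, 39.1, 71.4, 5.95 and 5.99 FPKM in Ink4a/Arf KO (adjusted p = 0.307). Il6 itself was below the filter, at 0 to 0.506 FPKM in p53 KO and 0 to 0.619 FPKM in Ink4a/Arf KO.

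The 4 induced factors had positive differences and overlapping groups. Pou5f1 measured 15.7, 0.65, 3.48, 8.86 and 4.88 FPKM in p53 KO, against 0.492, 2.55, 4.87, 0 and 1.05 FPKM in Ink4a/Arf KO (log2 difference 1.36, 95% interval -0.03 to 2.75, adjusted p = 0.35). Sox2, Klf4 and Myc had differences of 1.00, 0.79 and 1.12 (adjusted p = 0.353, 0.324 and 0.363). In p53 KO all 4 were highest in replicate 1 and second in replicate 4, and in Ink4a/Arf KO highest in replicate 3. Nanog, a pluripotency gene that is not in the cassette, measured 0.0673 to 0.702 FPKM in p53 KO, against 0.0308 to 0.25 FPKM in Ink4a/Arf KO, below the filter.

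With all 10 libraries, no member of several other lists passed or separated the groups: S phase and E2F targets (30 tested, median 0.26), mitosis genes (19, 0.08), immediate early genes (18, 0.45), senescence secretory cytokines (23, 0.24), unfolded protein response (26, -0.19), macrophages (26, 0.17), endothelium (21, -0.11) and fibroblasts (33, 0.08). With all 10 libraries the same held for the few tested pluripotency (6, -0.05), adipocyte (5, -1.02), T and NK cell (3, -0.30), B cell (2, 0.07) and islet (1, 0.45) genes. Of 11 tested podocyte genes Ptpro, a receptor phosphatase, was higher without overlap (9.09%, against 1.96% of all genes), but without Ink4a/Arf KO replicate 1 there were 7 of 11 (63.6%, against 4.88% of all genes). Of the lists with no separated member, the unfolded protein response had 4 lower without p53 KO replicate 2 (15.4%, against 3.93% of all genes). The plot of separated members per list shows these shares with all 10 libraries, where p53 targets have the largest lower share. The order depends on the libraries. Without Ink4a/Arf KO replicate 1 organic ion transporters (22.2%), fatty acid oxidation (20.6%) and adipocyte genes (1 of 5, 20%) lie above p53 targets (19%). Of all genes 3.13% were lower in that setting. Without p53 KO replicate 5 oxidative phosphorylation lies above them (37.8%, against 21.4% of p53 targets and 2.12% of all genes). Without the libraries above 100 FPKM of Clps fatty acid oxidation (44.1%), the unfolded protein response (38.5%) and erythroid genes (2 of 6, 33.3%) lie above p53 targets (21.4%). In that setting so do proximal tubule genes (28.9%), oxidative phosphorylation (27%) and organic ion transporters (22.2%), while 8.73% of all genes were lower.

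**Figure D5:**
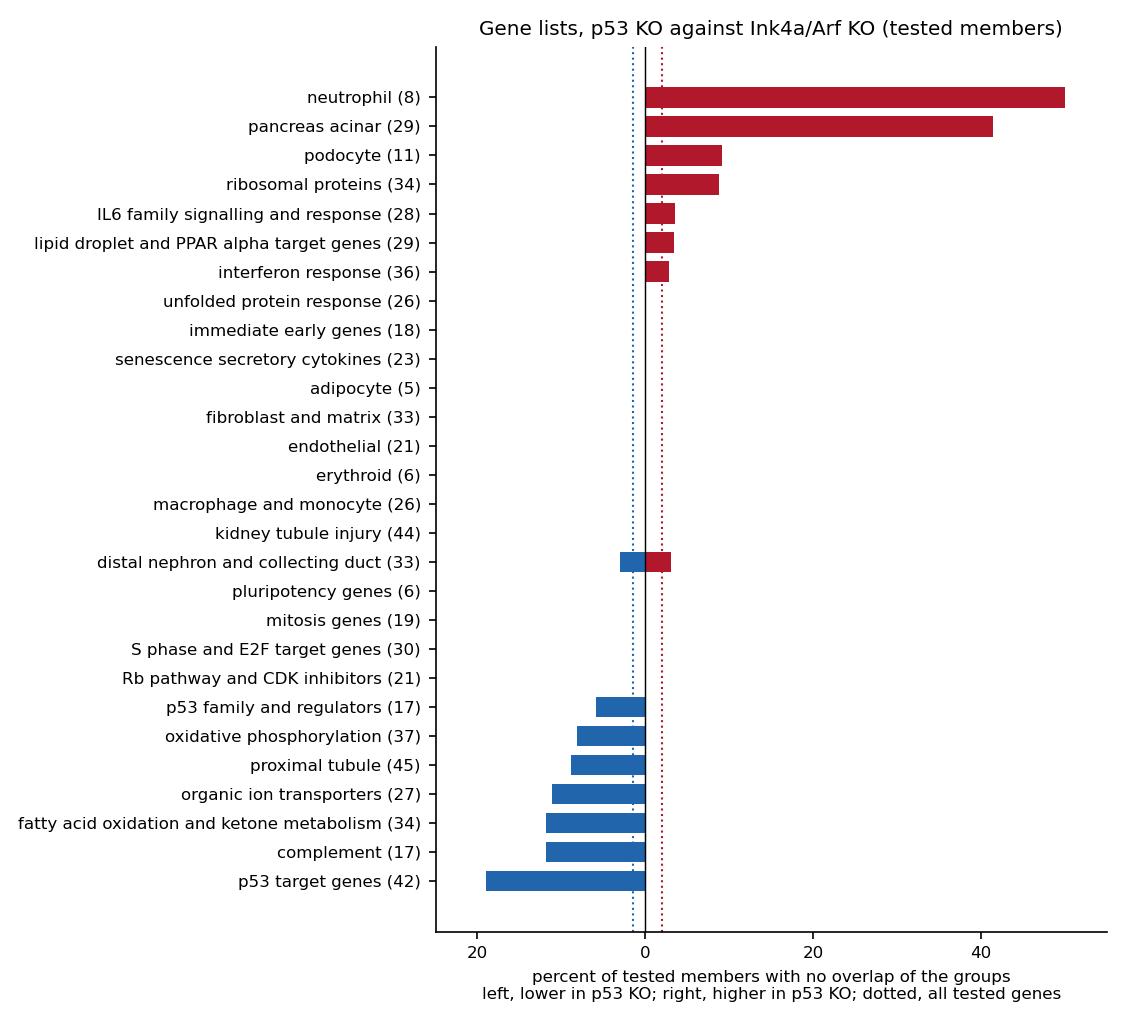
Percent of tested members in which all 5 p53 KO values lie above (right, red) or below (left, blue) all 5 Ink4a/Arf KO values, for lists with at least 5 tested members, with their number in parentheses and the share of all tested genes dotted (1.96% and 1.51%). The p53 target genes reach 19% lower, and neutrophil and acinar genes 50% and 41.4% higher. The neutrophil share includes Stfa2l1 and the acinar share Tff2 and Pla2g1b, whose separation was set by the filter.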

How the data were processed

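Poly(A) RNA of whole mouse kidney was sequenced as stranded libraries per the labels' protocols. FastQC, TopHat2 2.0.10, Bowtie 1.0.0, SAMtools 0.1.19, Cufflinks 2.2.1 and the genome build mm10 are named in the submitters' processing notes. The authors deposited 1 table of FPKM per gene and library; its gene annotation and any scaling between libraries are not given in the sources used here. Counts were not analysed here, so the depth behind a single value is unknown. FPKM are relative to each library's mapped reads, so abundant transcripts of 1 kind lower the values of the rest.

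From these values log2(FPKM + 1) was fitted with limma 3.58.1 in R 4.3.3 (mean-variance trend, 10 libraries, no covariate) for genes with 1 FPKM or more in 5 libraries, with Benjamini-Hochberg adjustment over all 12120. The script was tested on simulated data. Genes were named by rule: Trp53, Cdkn2a, Cdkn2b, Cdkn1a, Mdm2, Ccng1, the 4 factors, Nanog and Il6, every gene that passed, the 5 nearest the threshold on either side, and up to 3 of smallest p per list. Other named genes, such as further members without overlap and genes near Trp53, were chosen after their values were seen. Members and the 33 lists were chosen with earlier results of these data known. Gene positions are from GENCODE (GRCm38, the mm10 build) and promoters from RefSeq (GRCm38.p6). Alternatives were another pseudocount, filters, scaling, array weights, a replicate block and leaving out libraries. Leaving out the libraries above 100 FPKM of Clps, and list counts under scaling or without 1 library, were alternatives chosen after seeing the data. The pancreas libraries of the study were not used here, and 1 list member is not reported here.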

Additional observations from a re-analysis of the deposited data

Results flagged for a closer look

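In each knockout, 71 genes were checked for a library whose gap to its nearest neighbour exceeded 0.71 of the group's range, and 8 of 142 checks did so, all in Ink4a/Arf KO. Chance alone gives about 1 in 20. In 4 of them the library was Ink4a/Arf KO replicate 1, the only female: Eda2r at 0.705 FPKM, Plin2 at 24.1 FPKM, Kap at 19100 FPKM and C3 at 32.1 FPKM, with Kap the only one that was low. The gap was 0.903 of the range for Eda2r and 0.845 for Plin2. In Ink4a/Arf KO replicate 5 the acinar genes Clps, at 7.37 FPKM, and Cela2a, at 16.3 FPKM, stood above the other 4 libraries. In Ink4a/Arf KO replicate 4 the ribosomal protein genes Rplp2, at 418 FPKM, and Rpl13, at 422 FPKM, lay below the other 4.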

How the results depend on the processing

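No named gene that passed in any setting changed direction, but among genes that never passed the log2 difference took both signs across settings in Cdkn1a (-0.70 to 0.40), Bbc3 (-0.17 to 0.19), Perp (-0.13 to 0.09), Bax (-0.06 to 0.17) and Gdf15 (-0.49 to 0.61). Against 5 called genes (2 higher, 3 lower), a pseudocount of 0.1 gave 8, median-of-ratios scaling 11 (3 higher, 8 lower, 27.3% higher against 40%), quantile normalization 10 (2 higher, 8 lower), array weights 2747 (2007 higher), all 15 kidney libraries 34, and leaving out the libraries above 100 FPKM of Clps, added after seeing the data, 98. Leaving out 1 library gave 4 to 42: 42 without p53 KO replicate 2, 14 without p53 KO replicate 1, 10 without Ink4a/Arf KO replicate 5, and 8 without p53 KO replicate 5, Ink4a/Arf KO replicate 1 or Ink4a/Arf KO replicate 4. Of 42 tested p53 targets 3 were called, and 5 after scaling, 5 after quantile normalization, 5 with all 15 libraries and 2 to 3 without 1 library. With array weights 14 of 42 were called (4 higher, 10 lower), against 2747 of all 12120 genes. Called genes on chromosome 11, which held 8.31% of the tested genes, were 3 of the 5. They were 238 of 2747 with array weights, 8 of 34 with all 15 libraries and 12 of 98 without the libraries above 100 FPKM of Clps. Without 1 library they numbered 3 to 9, among 4 to 42 called. Since leaving out a library cannot undo a separation, no count of separated genes could fall that way. Separated p53 targets, 8 with all 10 libraries, numbered 8 to 10 lower without 1 library and 11 after scaling. The share of all genes lower, 1.51% in all 10, ran from 1.61% to 3.93% without 1 library and was 2.49% after scaling. The cause was not tested.

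Same-numbered libraries of both knockouts correlated in their deviations at 0.127, -0.0917, -0.317, -0.264 and -0.0312, so the replicate numbers do not pair them. With the replicate block 4 genes passed (3 higher, 1 lower), 2 of them among the 5, and 1 p53 target. Ccng1 and AA465934 passed in all 20 settings, Mgmt in all but the block, Xaf1 in 17 of the 19 it was tested in (not with a filter of 5 FPKM; lost with the block and without the libraries above 100 FPKM of Clps), and Trp53inp1 was lost in 12, with differences of -0.89 to -0.68. Trp53 passed in 6 of 20. Low genes such as Cdkn2a, Il6 and Nanog could not be compared at these levels.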

Other observations

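With all 15 kidney libraries in 1 fit, which estimates the spread over 3 genotypes, 34 genes passed between p53 KO and Ink4a/Arf KO (0.281%), the 5 among them. Several had small differences and little spread. Slc19a1, the reduced folate carrier, measured 53, 46.7, 50.7, 53.9 and 51.9 FPKM in p53 KO, against 41.0, 36.7, 35.4, 38.3 and 35.4 FPKM in Ink4a/Arf KO (log2 difference 0.45, limma adjusted p = 0.0131). Daxx, a histone H3.3 chaperone, measured 9.26, 7.14, 7.40, 8.54 and 8.61 FPKM in p53 KO, against 5.90, 5.79, 5.59, 5.54 and 6.22 FPKM in Ink4a/Arf KO (limma adjusted p = 0.0389). Ace, the angiotensin-converting enzyme of the brush border, measured 15, 40.1, 27.5, 22.6 and 14.9 FPKM in p53 KO, against 57.6, 51.6, 53.3, 58.4 and 67.6 FPKM in Ink4a/Arf KO (log2 difference -1.32, limma adjusted p = 0.0384). With 10 libraries Slc19a1, Daxx and Ace had adjusted p = 0.0883, 0.123 and 0.0958.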
